A study of Mus musculus with 44 samples.

Results

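The 10 tubulin genes examined here were chosen by symbol and by no cutoff on a measured value, though with earlier results of these data known. They were 3 α-tubulin genes (Tuba1a, Tuba1b and Tuba4a), 6 β-tubulin genes (Tubb2a, Tubb2b, Tubb3, Tubb4a, Tubb4b and Tubb5) and the γ-tubulin gene Tubg1, out of 17158 genes that the files list by RefSeq accession. Each of the 10 was counted at least once in all 12 RNA-seq and all 12 ribosome-profiling libraries. In the 20 libraries of poly(A)-tail sequencing the same held, except that Tubb4a was found in 19.

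The libraries came from mouse brain tissue and from primary cortical cultures, which were made from the cortices of pups of postnatal day 0 or 1. The cultures were treated early with cytosine arabinoside, which poisons dividing cells. Of the 9 cultures, 6 were harvested on day 14 in vitro (DIV14). One was unstimulated, 1 received brain-derived neurotrophic factor (BDNF) for 30 min, 1 received glutamate and glycine (glu/gly) for 30 min, and 3 had been infected on day 5 with lentivirus that carried GFP, miR-1 or miR-155 behind a synapsin promoter, which is active in neurons. The other 3 were harvested on day 10 (DIV10) after KCl for 0, 10 or 30 min. Tissues were hippocampus of embryonic day 16, and hippocampus and cortex of adult males, 1 mouse for each adult tissue. Visual cortex was taken from 8 mice aged 6 to 7 weeks that had spent 1 week in darkness, and 4 of these mice then saw light for 1 h. Sex was not determined for embryos and pups. Cultures and tissues had 1 library per assay, so all of their comparisons lack a replicate check and no p-value is given for them. The 4 dark and 4 light mice are the only replicated comparison.

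Tubulins are the proteins of microtubules. An α- and a β-tubulin form a dimer, dimers join end to end into the wall of the microtubule, and γ-tubulin sits in a ring complex from which new microtubules grow. Mammals make each kind from several genes, called isotypes, whose proteins differ mostly near their carboxyl ends. Tuba1a and Tubb2b are known for their high expression in migrating and newly born neurons, and mutations in them disturb the layering of the human cortex. Tubb3 is used as a marker of neurons, Tubb5 is expressed in most cells, Tubb4a is known from neurons and oligodendrocytes, and Tuba4a from mature neurons, platelets and muscle. Cells also control the stability of tubulin mRNAs through the nascent protein.

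The coding sequences of some isotypes are nearly the same, and this bears on what a short read can be assigned to. On the RefSeq annotation of GRCm38.p6, Tuba1a (chr15:98949847-98953501, minus strand) and Tuba1b (chr15:98931429-98934390, minus strand) differ at 23 of 1356 coding bases, so 98.3% are identical. Tubb2a (chr13:34074278-34078008, minus strand) and Tubb2b (chr13:34127008-34130354, minus strand) differ at 47 of 1338, so 96.5% are identical. The 30-nt stretch in which the α pair differs most is shown first, at coding positions 670 to 699 (chr15:98950691-98950720 for Tuba1a and chr15:98932239-98932268 for Tuba1b, both minus strand). Capitals mark the 10 bases that differ between the pair.
Tuba1a: tacacTaacctAaacAgGTtGatAGgTcaA
Tuba1b: tacacCaacctTaacCgCCtTatTAgCcaG
The Tuba1a stretch occurred at 2 places in the genome and the Tuba1b stretch at 5, among them Tuba1c. The corresponding stretch of the β pair lay at coding positions 61 to 90 (chr13:34076625-34076654 for Tubb2a and chr13:34129322-34129351 for Tubb2b, minus strand), with 5 bases that differ in capitals.
Tubb2a: tgggaggtGatAagCgatgagcatggCatC
Tubb2b: tgggaggtCatCagTgatgagcatggTatA
Coding positions 51 to 80 of the α pair (chr15:98951615-98951644 in Tuba1a) and 278 to 307 of the β pair (chr13:34075499-34075528 in Tubb2a) are shown as stretches in which the pair does not differ at all, in lower case throughout.
Tuba1a and Tuba1b: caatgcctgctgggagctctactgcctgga
Tubb2a and Tubb2b: gccagagtggtgcaggaaataactgggcaa
The first of these occurred at 12 places in the genome, and the second at 3.

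Of the 30-nt windows of the counted coding sequence, 5.01% were found at a single place in the genome for Tuba1a and 2.35% for Tuba1b. The values were 28.2% for Tubb2a, 20.5% for Tubb2b, 25.3% for Tubb4b, 65.6% for Tubg1 and 74.3% for Tubb3, and 92.3%, 95.6% and 96.3% for Tuba4a (chr1:75214972-75221261, minus strand), Tubb5 (chr17:35833920-35838301, minus strand) and Tubb4a (chr17:57080061-57087600, minus strand). The other genes were Tubb3 (chr8:123411553-123422015, plus strand), Tubb4b (chr2:25222158-25224702, minus strand) and Tubg1 (chr11:101119904-101126423, plus strand). All had 4 exons except Tubg1, which had 11. Whether RNA-seq and ribosome-profiling reads with several matches were kept is not given in the sources used here, so levels of Tuba1a, Tuba1b, Tubb2a, Tubb2b and Tubb4b from these assays are uncertain. A change of one of these genes can also hold reads of its near copy. Tail tags were kept only where they matched once. They come from the 3′ end of the mRNA, where at least 76.6% of windows were unique for Tuba1a, Tuba4a, Tubb2a, Tubb4a, Tubb5 and Tubg1. The share was 54.8% for Tubb3, 34.8% for Tubb2b, 12.1% for Tuba1b and 4.96% for Tubb4b.

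Reads or tags on genes ranged from 448022 to 7689624 in RNA-seq, from 817114 to 23212489 in ribosome profiling, from 389654 to 1057812 in TAIL-seq (cultures and adult cortex) and from 86841 to 4812273 in PAL-seq v2 (hippocampus and visual cortex). RNA of the hippocampi was poly(A)-selected, and that of the adult cortex and 6 cultures was depleted of rRNA. The labels were checked with marker genes in RNA-seq. Levels are given as reads or tags scaled to 1000000 on genes in each library (CPM). All 5 neuron markers were above 0 in every library and summed to 1168 CPM in embryonic hippocampus, 3791 in adult hippocampus, 3822 in adult cortex and 1382 to 1947 in the cultures. The 6 oligodendrocyte markers summed to 1684 in adult hippocampus and 2027 in adult cortex, against 35.2 in embryonic hippocampus and 46.5 to 101 in the cultures. The 4 markers of immature neurons were highest in the embryo, at 2440, with 48.9 in adult hippocampus and 30.4 in adult cortex. The 6 genes listed for dividing progenitors summed to 3976 in the embryo, 532 to 3163 in the cultures and 73.7 to 112 in the adult tissues. Only their sum was taken, which does not tell dividing cells from other cells that express part of the list. Astrocyte markers summed to 809 to 1612 in the cultures. The samples thus differed in cell types as well as in age, and in bulk samples fewer cells of a type and less RNA per cell cannot be told apart.

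Embryonic and adult brain used different isotypes. As CPM per kilobase of counted coding sequence (RPKM), Tubb5 took 51.8% of β-tubulin RNA-seq in embryonic hippocampus and Tubb4a 4.20%. In adult hippocampus Tubb4a took 37.5% and Tubb5 25.1%. Adult cortex had 29.9% Tubb4a and 30.8% Tubb5. The DIV14 culture had 37.2% Tubb5, 30.8% Tubb3 and 1.28% Tubb4a, and DIV10 had 40.1% Tubb5, 29.3% Tubb3 and 2.77% Tubb4a. Among ribosome-protected fragments (RPFs), which count ribosomes on the mRNA, Tubb5 took 53.6% of β-tubulin in the embryo and Tubb4a 35.5% in adult hippocampus. The order of the β-tubulin genes depended on the assay and the scale. By tail tags Tubb3 led in the embryo with 42.1%, beside 38.3% for Tubb5, and Tubb2a led in adult hippocampus with 69.2%, in adult cortex with 51.6%, at DIV14 with 65.8% and at DIV10 with 55.5%. Tubb4a took 0.767% of these tags in adult hippocampus and 5.80% in adult cortex. When RNA-seq reads were divided by the length of 30-nt windows found once, Tubb2b led in the embryo (4976 CPM per kilobase, beside 3395 for Tubb5), Tubb2a in adult hippocampus (960, beside 666 for Tubb4a) and in the DIV14 culture (2630, beside 1525 for Tubb5). Neither tags nor unique windows thus put Tubb5 first in the embryo or at DIV14, or Tubb4a first in adult hippocampus. Neither scale settles the order. Tubb4a had 10 tags beside 5870 RNA-seq reads in adult hippocampus, so tags cannot rank it there. Tags can also undercount Tubb2b and Tubb4b, with 34.8% and 4.96% of 3′ windows unique. The scale of unique windows holds only if reads with several matches were left out, which is not known. All 10 genes together made up 8355 CPM of RNA-seq in the embryo, 2885 in adult hippocampus, 2850 in adult cortex, 5545 at DIV14 and 6646 at DIV10.

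**Figure D1:**
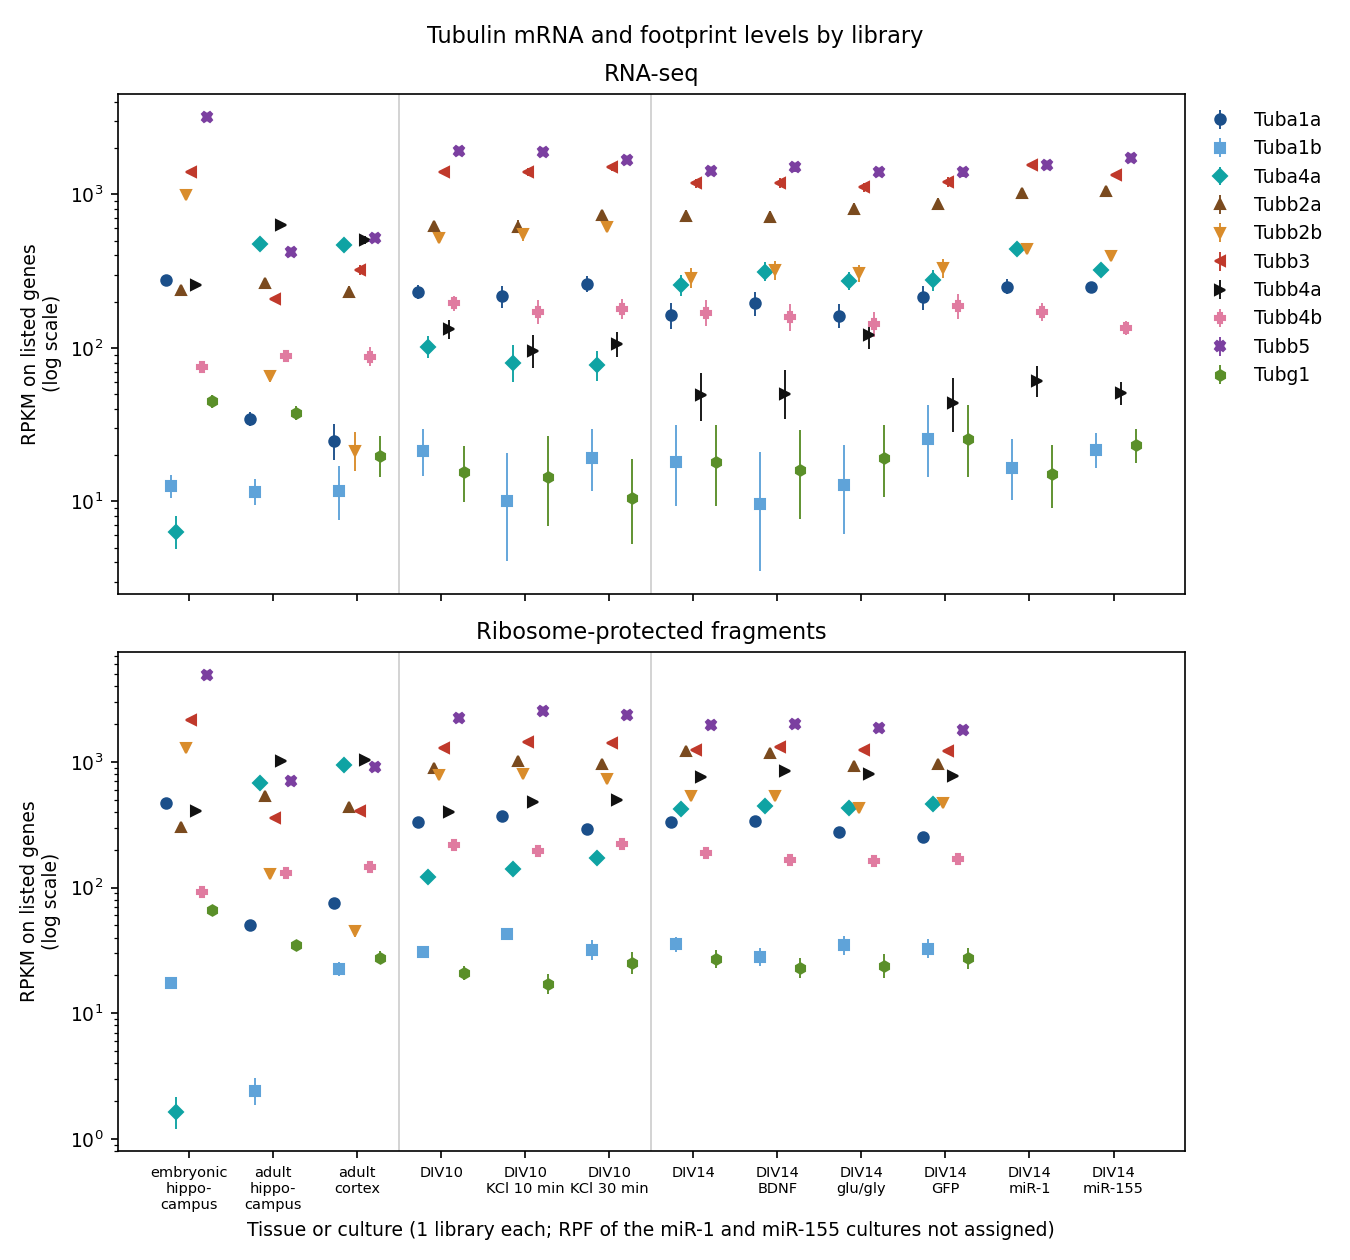
Level of each tubulin gene in each culture and tissue, in RNA-seq and RPFs, as RPKM on a log axis, with 1 point per library and gene and 95% counting intervals as bars. On this scale Tubb5 is the highest gene in embryonic hippocampus and, next to Tubb3 with miR-1, in the cultures, whereas by tail tags Tuba1a is the highest in the embryo (9776 CPM) and at DIV14 (7837 CPM), and Tuba4a is 75.6-fold higher in adult than in embryonic hippocampus in RNA-seq.

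The order of the α-tubulin genes depended on the assay as well. In RNA-seq per kilobase, Tuba4a took 91.2% of α-tubulin in adult hippocampus, 92.8% in adult cortex, 58.6% at DIV14 and 28.6% at DIV10, but 2.13% in the embryo. By tail tags, which need no length correction, Tuba4a took 25.6%, 36.2%, 4.89%, 1.58% and 0.117% in the same order. In these tags Tuba1a led in each of these samples, with 72.5% in adult hippocampus, 62.6% in adult cortex and 99.0% in the embryo. In the visual cortex of the 8 mice Tuba4a took 24.99% to 30.4% of α-tubulin tags. Both assays thus ranked the 5 samples alike for Tuba4a, with the embryo lowest and adult cortex highest, but they differed in which gene was the most abundant.

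The gap lay with Tuba1a and Tubb2a. The ratio of tail tags to RNA-seq reads, both in CPM, had a median of 28.4 for Tuba1a over the 12 cultures and tissues (range 22.8 to 62.5). In the 11 of them in which Tuba1a reached 10 RPM in RNA-seq (the authors' scale, whose library total also holds reads that are not on the listed genes), at least 99.9% of genes had a lower ratio. For Tubb2a the median was 6.28 (4.58 to 11.9), above 96.7% to 99.5% of genes. The medians of the other genes were 1.74 for Tuba1b, 1.37 for Tuba4a, 0.944 for Tubg1, 0.919 for Tubb3, 0.895 for Tubb5, 0.694 for Tubb4b, 0.616 for Tubb4a and 0.551 for Tubb2b. When RNA-seq reads were divided by the length of unique windows in place of the whole counted sequence, the median ratio of Tuba1a was 1.82 and that of Tubb2a 2.23. On that scale Tuba4a had 1.60, Tubb5 1.07 and Tubb3 0.871, and the genes with few unique windows at the 3′ end, Tuba1b, Tubb2b and Tubb4b, had 0.0523, 0.142 and 0.221. Tubb4a stood out in adult hippocampus, with 10 tags beside 5870 RNA-seq reads and 2.02% of genes at a lower ratio, and in the embryo, with 0 tags beside 2542 reads. In adult cortex 28.1% of genes had a lower ratio, in the DIV10 cultures 26.8% to 39.6%, and in the DIV14 cultures 53.4% to 89.7%.

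**Figure D2:**
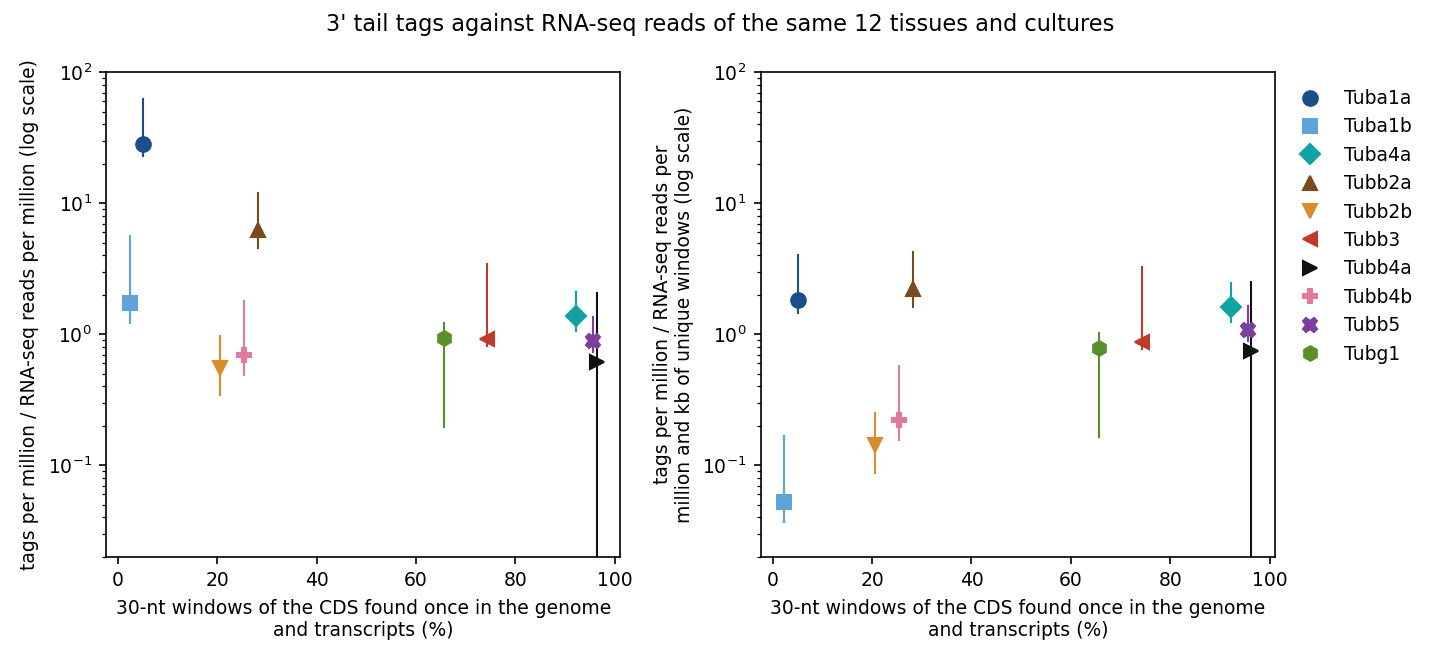
Ratio of tail tags to RNA-seq reads (log axis), both scaled to the library, against the share of 30-nt coding windows found at a single place, with RNA-seq as reads on the left and as reads per kilobase of unique windows on the right. Points are medians over the 12 cultures and tissues and lines the range, Tuba1a has a median of 28.4 on the left and 1.82 on the right, and the line of Tubb4a runs off the axis because this gene had 0 tags in embryonic hippocampus.

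Adult and embryonic hippocampus were compared to see how isotypes change with maturation. Tuba4a and Tubb4a were higher in the adult, and Tuba1a, Tubb2b, Tubb3 and Tubb5 were lower, in RNA-seq and in RPFs alike. Tubb2a and Tubb4b stayed within 2-fold in both assays. A change counted as past 2-fold when its log2 value was beyond 1 in either direction, among genes that reached 10 RPM in either library.

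Tuba4a rose from 63 RNA-seq reads in the embryo (6.32 RPKM) to 4511 in the adult (478 RPKM), which is 75.6-fold (log2 6.24, 95% counting interval 5.88 to 6.62). Its RPFs numbered 49 in the embryo and 19203 in the adult, a 420-fold difference (log2 8.71, 8.31 to 9.15). Its tail tags were 1 and 203 (log2 6.31, 3.82 to 11.6). All 3 assays thus found little Tuba4a in the embryo. Tubb4a had 2542 and 5870 RNA-seq reads (257 and 627 RPKM) and was 2.44-fold higher in the adult (log2 1.29, 1.22 to 1.35), with a 2.49-fold difference in RPFs (12190 and 28353). Tail tags of Tubb4a were too few for a comparison, at 0 and 10.

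Tubb2b fell most of the tubulin genes in both assays. It had 9872 RNA-seq reads in the embryo and 611 in the adult (997 and 65.2 RPKM), 15.3-fold lower, and 38676 and 3572 RPFs, 10.1-fold lower. Tuba1a was 8.08-fold lower in RNA-seq (2791 and 327 reads) and 9.35-fold lower in RPFs (14203 and 1417). In tail tags Tuba1a was 3.78-fold lower (9776 and 2587 CPM). These were the isotypes known from newly born neurons. Tubb5 fell 7.54-fold in RNA-seq (3173 and 421 RPKM) and 7.07-fold in RPFs, and Tubb3 fell 6.71-fold and 6.03-fold. Tail tags of Tubb5 and Tubb3 were lower in the adult as well, by 6.41-fold and 5.34-fold.

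For the γ-tubulin gene Tubg1 the log2 difference was -0.26 in RNA-seq and -0.92 in RPFs (2011 RPFs in the embryo and 993 in the adult). Tuba1b did not pass 10 RPM in RNA-seq, and its RPFs numbered 525 and 68, which is 7.20-fold lower. Tubb2a differed by 0.15 in RNA-seq and 0.81 in RPFs on the log2 scale, and its tail tags were 2.39-fold higher in the adult (148 and 902).

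In all, 2 of 9 tubulin genes were past 2-fold higher in RNA-seq and 4 lower, where 19.7% of all genes tested were higher and 27.6% lower. In RPFs 2 of 10 were higher (25.8% of all genes) and 5 lower (33.6% of all genes). The median log2 difference was -0.26 for tubulin genes and -0.32 for all genes in RNA-seq, and -1.75 and -0.30 in RPFs. In tail tags 5 of 5 genes tested were past 2-fold, where 49.5% of all genes were. Beside these changes the markers of immature neurons summed to 2440 CPM in the embryo and 48.9 in the adult, and those of oligodendrocytes to 35.2 and 1684. Their part in the isotype changes was not tested.

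**Figure D3:**
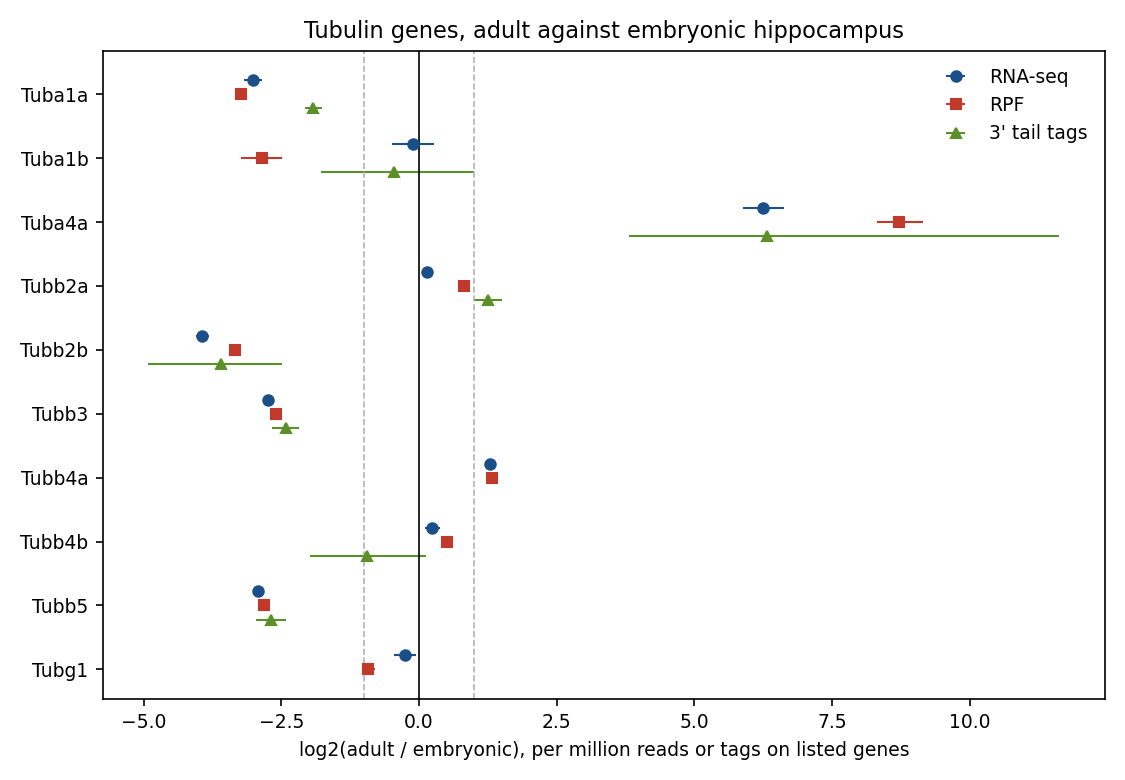
Adult against embryonic hippocampus for each tubulin gene as log2 differences in RNA-seq, RPFs and tail tags, with bars for 95% counting intervals and dashed lines at 2-fold. Tuba4a is the highest in all 3 assays, at log2 6.24, 8.71 and 6.31, and Tubb2b the lowest in RNA-seq, at -3.94. Tags of Tubb4a (10 in the adult, 0 in the embryo) and Tubg1 (8 and 1) are not drawn.

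Translational efficiency (TE) is the log2 ratio of RPF RPM to RNA-seq RPM of the same sample, here where RNA-seq reached 10 RPM. It differed between adult and embryonic hippocampus by less than 2-fold for each of 8 tubulin genes tested, so 0 of 8 were past it, where 23.4% of all genes were. The log2 TE of Tubb2a was 1.13 in the embryo and 2.07 in the adult, a difference of 0.94 (0.85 to 1.03). Tubb2b differed by 0.88, Tubb4b by 0.53, Tubb3 by 0.43, Tubb5 by 0.37, Tubb4a by 0.31, Tuba1a by 0.07 and Tubg1 by -0.38. The median of the 8 was 0.40, and that of all genes was 0.22. Tail medians were shorter in the adult for the 4 genes with at least 50 tags in both samples. Tuba1a had 60 nt in the embryo and 45.5 nt in the adult, Tubb2a 80.5 and 56 nt, Tubb3 73 and 61 nt, and Tubb5 59 and 51 nt. Over the 169 genes with at least 50 tags in both samples, the median difference was -10 nt. The hippocampal tail values were taken as medians of the tags.

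Adult cortex was set beside the unstimulated DIV14 culture, which comes from the same part of the brain. The tissue had more Tubb4a and less Tuba1a, Tubb2a, Tubb2b, Tubb3 and Tubb5. Tubb4a had 32 RNA-seq reads in the culture and 1106 in the cortex (49.0 and 504 RPKM), 10.3-fold higher (log2 3.36, 2.86 to 3.92), but its RPFs differed by only 0.44 on the log2 scale (759 and 1030 RPKM). Tubb2b was 13.4-fold lower in the cortex in RNA-seq (187 and 47 reads), with a log2 difference of -3.57 in RPFs. Tuba1a was 6.60-fold lower in RNA-seq (108 and 55 reads), 4.44-fold lower in RPFs and 3.90-fold lower in tail tags. Tubb3 was 3.68-fold lower, Tubb2a 3.13-fold and Tubb5 2.74-fold in RNA-seq, and RPFs of these genes were 3.05-, 2.78- and 2.16-fold lower. Tuba4a was 2.26-fold higher in RPFs and 1.82-fold in RNA-seq.

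In RNA-seq 1 of 8 tubulin genes was past 2-fold higher (17.5% of all genes) and 5 lower (20% of all genes). In RPFs 1 of 10 was higher (9.78% of all genes) and 5 lower (9.86% of all genes). The medians in RPFs were -0.88 for tubulin genes and -0.06 for all genes. Of 8 genes tested in tail tags, 5 were past 2-fold, where 19% of all genes were. The direction agreed between RNA-seq and tags for 7 of these 8 genes, Tubb4b being the exception at -0.95 and 0.60. Oligodendrocyte markers summed to 64.9 CPM of RNA-seq in the culture, with 2 of 6 above 0, and to 2027 in the cortex, and their part in the rise of Tubb4a RNA was not tested.

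TE differed past 2-fold for 1 of 6 tubulin genes, where 18.4% of all genes did. This was Tubb4a, with a log2 TE of 5.60 in the culture and 2.62 in the cortex, a difference of -2.98 (-3.49 to -2.47). The other 5 were 0.12 to 0.53 higher in the cortex. Tails of tubulin mRNAs were 12.9 nt shorter to 0.263 nt longer in the cortex, with a median of -7.49 nt, where the median of all genes was -12.4 nt.

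Between the unstimulated cultures, Tuba4a was higher at DIV14 than at DIV10 in each assay. It had 157 RNA-seq reads at DIV10 and 169 at DIV14 (102 and 256 RPKM), 2.52-fold higher, with a log2 difference of 1.33 (1.01 to 1.66). In RPFs it was 3.46-fold higher (1489 and 2357, 121 and 419 RPKM) and in tail tags 2.88-fold higher (85 and 422). Tuba4a was thus lowest in the embryo, higher at DIV10, higher again at DIV14 and highest in adult tissue in RNA-seq and RPFs. Tubb2b went the other way without passing 2-fold, at -0.86 in RNA-seq, -0.57 in RPFs and -0.63 in tags. Tubb4a gave opposite signs, with 202 RNA-seq reads at DIV10 and 32 at DIV14 (log2 -1.43, -2.02 to -0.89) but a log2 difference of 0.92 in RPFs (4888 and 4231) and 0.39 in tags (39 and 88, -0.17 to 0.97).

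In this comparison 2 of 8 tubulin genes were past 2-fold in RNA-seq (7.1% of all genes), 1 of 10 in RPFs (9.58% of all genes), 1 of 8 in tags (7.8% of all genes) and 1 of 8 in TE (1.36% of all genes). Tubb4a was the gene past 2-fold in TE, at 3.18 and 5.60 on the log2 scale. The other 7 differed by 0.05 to 0.59, against a median of 0.04 over all genes. Tails of all 7 tubulin genes measured in both were longer at DIV14, by 2.45 to 15.4 nt with a median of 4.42 nt, where all genes had a median of 6.93 nt. The longest change was that of Tuba4a, from 88.4 to 104 nt. The genes listed for dividing progenitors, whose sum is not a count of dividing cells, summed to 3163 CPM in RNA-seq at DIV10 and 1684 at DIV14. The cultures were harvested in separate experiments, and day in vitro and experiment cannot be told apart.

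Tubb4a had an extreme TE in each of the 7 cultures in which TE was measured. Its log2 TE was 5.60 in the unstimulated DIV14 culture (5.10 to 6.10), 5.63 after BDNF, 4.05 after glu/gly, and 5.96 in the GFP culture. At DIV10 it was 3.18, and 3.56 and 4.25 after 10 and 30 min of KCl. Of all genes, 97.7% to 99.9% had a lower TE in these cultures, against 93.6% in adult cortex, 85.2% in adult hippocampus and 84.2% in the embryo, where log2 TE was 2.62, 1.76 and 1.45. The value rests on a low RNA-seq count, since in the DIV14 cultures the authors' RNA-seq RPM of Tubb4a was 10.2 to 36.6, close to the cutoff of 10. With tail tags in place of RNA-seq the rank was as high in the cultures with at least 50 tags. The log2 ratio of RPFs to tags was 3.53 in the unstimulated DIV14 culture, 3.47 with BDNF, 3.18 with glu/gly and 2.404 in adult cortex, each above at least 99.3% of genes. The GFP culture and the DIV10 cultures had 36 to 49 tags and no such value. In adult cortex Tubb4a had 0.386 tags per RNA-seq read, both in CPM, and few tags raise the ratio of RPFs to tags.

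The other tubulin mRNAs also lay above the median TE of all genes in each sample in which they were measured. In the DIV14 culture log2 TE was 2.68 for Tuba1a, 2.55 for Tubb2b, 2.39 for Tubb2a, 2.36 for Tuba4a, 2.11 for Tubb5, 1.79 for Tubb4b and 1.73 for Tubb3, against 1.14 for all genes. In the embryo the values were 1.54 for Tuba1a, 1.42 for Tubb3, 1.42 for Tubb5, 1.35 for Tubg1, 1.16 for Tubb2b, 1.13 for Tubb2a and 1.09 for Tubb4b, against 0.67 for all genes. Tubg1 had the value closest to the median of all genes, at 0.97 in adult hippocampus against 0.88. Tuba1b had no TE value, as it stayed under 10 RPM in RNA-seq. Set against tail tags, RPFs of Tuba1a were low, with a log2 ratio between -5.31 and -3.998 in the 10 samples and 1.65% to 11% of genes lower. RPFs of Tubb2a were low against tags as well, with a log2 ratio between -2.57 and -1.92 and 11.7% to 34% of genes lower. The high TE of both genes thus held with RNA-seq reads and not with tags as the mRNA level. For Tuba1a the ratio to tags sets a coding sequence with 5.01% unique windows against a 3′ end with 76.6%. Per kilobase of unique windows, RPFs of Tuba1a in the DIV14 culture were 6812 CPM, beside 7837 CPM of tags. For Tubb5 these values were 2107 and 1609. The part of unequal windows in the low ratios of Tuba1a and Tubb2a was not tested.

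Short stimuli changed few tubulin values. Each stimulated culture was compared with the 1 unstimulated culture of its day, so comparisons of the same day share that control. After BDNF, 0 of 8 genes were past 2-fold in RNA-seq (2.2% of all genes), 0 of 10 in RPFs (1.29%) and 0 of 8 in TE (0.786%), and RNA-seq differences ran from -0.09 to 0.29 on the log2 scale. After glu/gly, Tubb4a was the 1 gene of 8 past 2-fold in RNA-seq (4.21% of all genes), with 32 reads in the control and 94 after the stimulus (log2 1.31, 0.72 to 1.94). Its RPF level differed by 0.07, and 0 of 10 genes were past 2-fold in RPFs (0.81% of all genes). Its tail tags gave 0.42 (-0.02 to 0.86). In TE, Tubb4a was the 1 of 8 past 2-fold (4.16% of all genes), at -1.55 (-2.14 to -0.97), where all genes had a median of -0.30.

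After KCl for 10 min, 0 of 8 genes were past 2-fold in RNA-seq (0.756% of all genes), 0 of 10 in RPFs (3.61%) and 0 of 8 in TE (14.9%). After 30 min, 0 of 8 were past it in RNA-seq (5.16%) and 0 of 10 in RPFs (3.91%), but 2 of 8 in TE (10% of all genes). The log2 TE of Tuba4a was 1.83 in the control and 3.18 after 30 min, a difference of 1.35 (0.94 to 1.76), made up of -0.40 in RNA-seq and 0.50 in RPFs and of a shift between the RPM totals. For Tuba4a this rests on 157 RNA-seq reads in the control and 80 after 30 min. Tubb4a differed by 1.07 (0.73 to 1.42). All genes had a median TE difference of 0.32 in this comparison and of -0.41 at 10 min. When tail tags stood for the mRNA level, Tuba4a differed in TE by -0.0676 at 30 min.

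Lentiviral miRNAs left all tubulin genes within 2-fold. With miR-1 against GFP, 0 of 8 genes were past it in RNA-seq (3.37% of all genes), with differences from -0.13 to 0.68 and a median of 0.30 against 0.01 for all genes. The highest was Tuba4a, with 161 reads in the GFP culture and 556 with miR-1. With miR-155, 0 of 8 were past it (1.55% of all genes), from -0.46 for Tubb4b to 0.32. The 2 comparisons share the GFP control. GFP itself against the unstimulated culture gave 0 of 8 in RNA-seq (3.52%) and 0 of 10 in RPFs (2.37%). The paper prepared its cultures in batches and does not say which culture was in which, so virus and batch cannot be told apart here. The median tail-length difference of tubulin genes lay within 3 nt of that of all genes in each of these comparisons, with 1.84 nt for tubulin genes and -1.04 nt for all genes after BDNF, -4.74 and -4.68 nt after glu/gly, and 4.42 and 2.22 nt after 30 min of KCl.

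Tuba1a had the shortest tails of the tubulin genes measured in each culture, and Tubb2b the next shortest. Tuba4a was close to Tubb2b after 10 min of KCl, at 89.9 beside 88.2 nt. In the 9 cultures the mean tail of Tuba1a was 72.1 to 79.5 nt, where the median of all genes was 100 to 112 nt, and 0.563% to 1.67% of genes had shorter tails. In adult cortex it was 77.6 nt (3.36% of genes shorter). Tubb2b had 78.0 to 89.8 nt in the cultures, with 1.41% to 10.6% of genes shorter. Tubb2a, the near copy of Tubb2b in coding sequence, had 100 to 110 nt and sat near the median, with 37.2% to 62.5% of genes shorter. Tails were 88.4 to 105 nt for Tuba4a, 91.5 to 106 nt for Tubb3 and 87.8 to 100 nt for Tubb5. Tubb4b reached 50 tags in 8 of 9 cultures, with 90.4 to 110 nt, and Tubb4a in 5, with 93.2 to 113 nt. After BDNF both were above Tubb2a, at 110 and 113 nt beside 108 nt. In the visual cortex Tuba1a had 71.5 to 81.7 nt, with 7.19% to 25.2% of genes shorter, against library medians of 77.5 to 97.8 nt. In the hippocampi its median tail was above that of 22.9% of genes in the adult and 35.1% in the embryo. Tubb5 had a shorter tail than Tuba1a in the embryo, at 59 beside 60 nt. Tubb2b did not reach 50 tags in any tissue library.

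Light after darkness did not change a tubulin gene past the threshold, an adjusted p of 0.05. In tag counts, 0 of 8 tubulin genes passed in edgeR's quasi-likelihood test, where 128 of 9554 genes did (1.34%). Of the 8, 1 had an unadjusted p under 0.05 in this test, where 903 of the 9554 genes did. DESeq2 called 126 genes and 0 tubulin genes. The gene with the lowest adjusted p was Tuba4a. Its tag levels in CPM were 712, 800, 728 and 712 in the dark mice and 834, 893, 791 and 822 in the light mice. The groups overlapped by 1 pair, the highest dark mouse and the lowest light mouse. The log2 difference was 0.20 ± 0.081 (SE, n = 4 and 4), with a 95% interval of 0.03 to 0.37 and an adjusted p of 0.392 in edgeR.

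Tuba1a had 1981 ± 205 CPM in the dark and 2050 ± 122 in the light (SD, n = 4 each), a log2 difference of 0.07 with an adjusted p of 0.860 in edgeR. Tubb2a had 1570 ± 151 and 1541 ± 231, Tubb5 924 ± 81.1 and 908 ± 96.7, and Tubb3 818 ± 73.2 and 786 ± 82.0. Tubb4a had 373 ± 23.5 and 362 ± 43.97, Tubb4b 196 ± 7.28 and 205 ± 14.7, and Tubg1 16.5 ± 3.57 and 17.8 ± 2.67. The dark and light ranges overlapped for each of these genes. The 95% intervals of the log2 differences reached as far as -0.39 and 0.62, both for Tubg1, and the interval of each of these 7 genes held 0. Tuba1b (3 to 26 tags) and Tubb2b (1 to 10 tags) were too low to be tested.

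Mean tail lengths gave 0 of 7 tubulin genes past the threshold in limma, where 10 of 4321 genes passed (0.231%). An unadjusted p under 0.05 in limma was found for 0 of the 7, where 170 of the 4321 genes had one. All genes had a median difference of 3.75 nt and the 7 tubulin genes of 3.39 nt. Tuba4a again had the largest difference among them, 78.8 ± 5.18 nt in the dark and 87.8 ± 8.79 nt in the light (SD, n = 4 each), with an interval of -4.06 to 22.1 nt and an adjusted p of 0.999 in limma. Tuba1a had 74.8 ± 3.65 and 76.9 ± 5.07 nt, Tubb2a 89.0 ± 8.27 and 94.7 ± 10.6 nt, Tubb5 79.3 ± 6.66 and 82.7 ± 5.04 nt, and Tubb4a 88.8 ± 3.61 and 89.0 ± 3.00 nt. The library medians moved over a range as wide, from 77.5 to 92.4 nt in the dark mice and from 81.6 to 97.8 nt in the light mice. Limma gave each gene the same standard error of 6.68 nt.

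**Figure D4:**
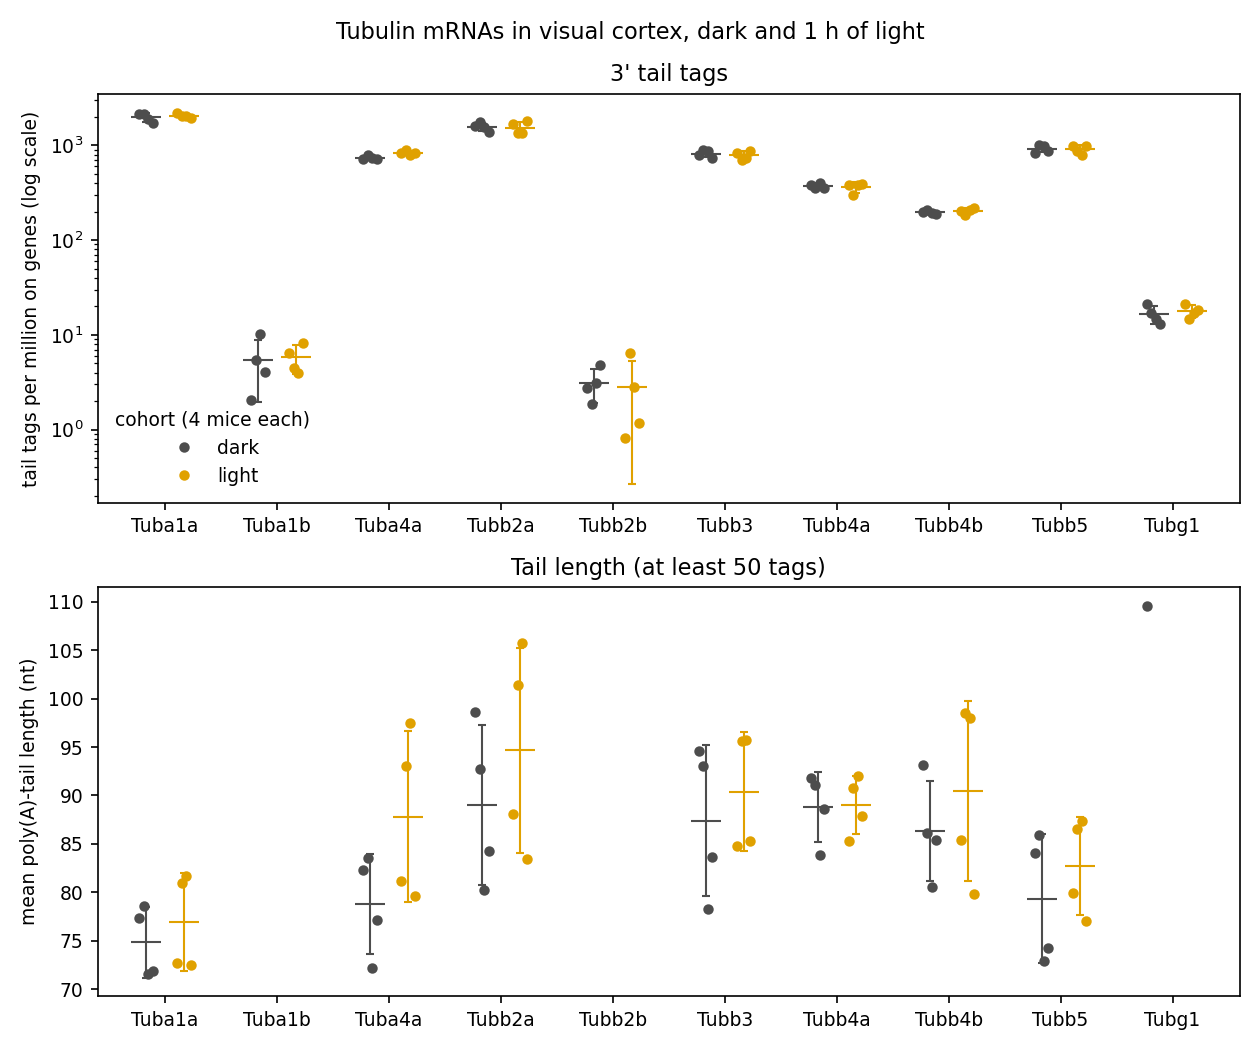
Tail tags in CPM (log axis) and mean tail length in nt of tubulin genes in visual cortex, with 1 point per mouse and the mean ± SD of the 4 dark and 4 light mice. The groups overlap for each gene with 4 values in both, and Tuba4a has the largest shift in both panels, from 738 to 835 CPM and from 78.8 to 87.8 nt.

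Genes that fold, assemble and modify tubulin were counted in the same comparisons. Chaperonin CCT and prefoldin, which fold new tubulin, fell from embryonic to adult hippocampus for 6 of 14 genes in RNA-seq (27.6% of all genes were lower), with 0 higher (19.7% of all genes) and a median log2 difference of -0.88 where all genes had -0.32. Pfdn4, a prefoldin subunit, fell by 1.75 and the chaperonin subunit Cct2 by 1.34 on the log2 scale. In RPFs 8 of 14 were lower (33.6% of all genes), with a median of -1.28 where all genes had -0.30. Of the 6 cofactors that build the dimer, 2 were past 2-fold lower in RNA-seq, Tbcd (-1.46) and Tbca (-1.03), a share near that of all genes. The median of the 6 was -0.36 where all genes had -0.32. In RPFs 3 of the 6 were lower (33.6% of all genes) and 1 higher (25.8% of all genes). The higher gene was Arl2, a small GTPase that works with the cofactors, at 4.17-fold. In the γ-tubulin ring complex 4 of 7 genes were lower in RNA-seq, where 27.6% of all genes were, with a median of -1.02. In RPFs 2 of 9 were lower, where 33.6% of all genes were, with a median of -0.40. The largest change was that of Nedd1, which anchors the complex to the centrosome and spindle, with 222 RNA-seq reads in the embryo and 4 in the adult.

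Of 14 tubulin-modifying enzymes tested in RNA-seq, 9 were lower (27.6% of all genes) and 2 higher (19.7% of all genes) in the adult, with a median of -1.73. In RPFs 8 of 13 were lower (33.6% of all genes) and 2 higher (25.8%), with a median of -1.62. Vash2 and Vash1, which remove the last tyrosine of α-tubulin, had 541 and 1641 reads in the embryo and 7 and 218 in the adult. Among severing and autoregulation genes 4 of 6 were lower in RNA-seq (27.6% of all genes) and 4 of 6 in RPFs (33.6%). One of those lower in RNA-seq was Spast, a microtubule-severing enzyme, with 1628 reads in the embryo and 386 in the adult. Of the 10 other tubulin genes 1 passed the filter in RNA-seq, Tubg2, the other γ-tubulin gene, with 80 and 317 reads. In the adult cortex 9 of 14 folding genes were past 2-fold lower than in the DIV14 culture in RNA-seq (20% of all genes), with a median of -1.13 where all genes had -0.24, but 0 of 14 in RPFs (9.86% of all genes). Between DIV14 and DIV10, Tubb6 was lower at DIV14 in RNA-seq (12 and 73 reads). In that assay 0 of the other genes of these lists were past 2-fold, where 7.1% of all genes were. After light 0 genes of these lists passed in edgeR, where 1.34% of all genes did. Tested were 14 folding, 6 cofactor, 7 ring-complex, 10 modifying, 4 severing and autoregulation and 2 other tubulin genes. Of the genes with the largest change in each list, Cct7 had the lowest adjusted p, at 0.312 in edgeR (log2 0.28).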

How the data were processed

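RNA-seq and ribosome profiling were available for 9 cultures and 3 tissues, and tail sequencing for these and for 8 mice. The authors mapped reads to mm10 (the submitters' processing notes name STAR 2.4.2 and bedtools) and deposited a read count per gene over the open reading frame without its first 50 nt. For the authors' RPM values the divisor was greater than the sum of counts over listed genes, and their RPKM values divide RPM by length. The deposited log2 TE values are the authors' ratios of RPF to RNA-seq RPM, and were used as an alternative. For tails the authors deposited tag counts and tail lengths in nt, from tags matching the genome once, measured with a hidden Markov model. Tail values are means, except in the hippocampi.

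CPM and RPKM in the text were recomputed on the reads of listed genes, and TE from the authors' RPM. Tail lengths required 50 tags. Intervals (95%, Clopper-Pearson for ratios of counts, exact Poisson for levels) cover counting error only, as reads carry no molecular identifiers. Symbols came from RefSeq GRCm38.p6 (17010 of 17158 accessions), and windows of 30 nt were searched on both strands of that genome. Light was tested in tag counts by the quasi-likelihood test of edgeR 4.0.16 (filterByExpr, TMM) and in mean tail length by limma 3.58.1, with Benjamini-Hochberg adjustment over all genes. Both were tested on simulated data with 200 changed genes. Alternatives were DESeq2 1.42.0, other scalings, filters and cutoffs, tags in place of RNA-seq, and leaving out each mouse. Other software was R 4.3.3, Python 3.11.15, pandas 2.3.3, numpy 2.4.6 and scipy 1.17.1.

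All 10 tubulin genes are named. Of each list, at most the 2 genes with the largest change are named. The members and lists were chosen with earlier results of these data known. The numbers of dark and light mice did not pair them, as their deviations correlated with r from -0.196 to 0.0311 in tag counts and from -0.113 to 0.0405 in tail lengths. The labels of 2 ribosome-profiling libraries of transduced cultures contradict themselves, and these entered no comparison. A table that compiles the 8 visual-cortex files was not used.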

Additional observations from a re-analysis of the deposited data

Results flagged for a closer look

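In visual cortex, 1 of the 4 light mice lay far from the others for Tubb4a, with 296 CPM of tags where the other 3 had 377 to 391. It was the only such gap in 34 groups of 4 mice examined, and chance gives about 1 in 20. The 2 ribosome-profiling libraries of transduced cultures whose labels name both miR-1 and miR-155 entered no comparison. The 10 tubulin genes together made up 9820 CPM of RPFs in one and 8739 in the other.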

How the results depend on the processing

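In all, 355 values were recomputed in 1069 runs. For light, a gene's value was kept when its sign and its call at the threshold stayed, whatever its size. In single libraries it was kept within its counting interval, and a sign change was counted only for main changes past 2-fold. Counts of genes were kept when similar. By these rules 785 were kept, 253 moved and 31 changed sign. Those kept include 48 values with at least 200 tags and 49 at 30 RPM. These settings only drop genes and cannot move a value. Scaling by the authors' RPM shifted the log2 differences of all genes by -0.50 (KCl for 30 min, RNA-seq) to 0.28 (miR-1, RNA-seq). It gave 2 tubulin genes past 2-fold in RPFs between DIV14 and DIV10 in place of 1. The cause of the changes in TE was not tested. With tail tags in place of RNA-seq reads, tubulin genes past 2-fold in TE numbered 1 for adult against embryonic hippocampus, 0 for DIV14 against DIV10, 0 for glu/gly and 0 for KCl for 30 min, where the Tuba4a difference was -0.0676. The same change gave 1 gene past 2-fold for DIV14 against DIV10 in RNA level (7.8% of all genes), with Tubb4a at 0.39, and 0 for glu/gly (0.5% of all genes). A cutoff of 30 RPM drops genes and changes no TE. It dropped Tubb4a in adult cortex against DIV14, DIV14 against DIV10, glu/gly and KCl for 30 min, and Tuba4a in the last. The 0 genes then left past 2-fold in TE follow from the cutoff and say nothing on their TE. Centring TE on the median of all genes left 1 for KCl for 30 min. Adult cortex in place of adult hippocampus, chosen after seeing the data, gave 3 genes past 2-fold in TE and turned Tuba1b in RPFs to 0.38. The median log2 TE of all genes was 1.31 in adult cortex and 0.67 in the embryo. Their RNA was also prepared differently, by rRNA depletion and by poly(A) selection. For this swap, the authors' RPM scaling, TE with tags and centred TE, the share of all genes past 2-fold was not worked out. Their counts of tubulin genes thus lack a background.

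For light, 0 tubulin genes passed under any setting tried. Small tag differences changed sign, in log2 units, for Tubb2a (0.00464 in DESeq2, 0.00508 without a filter) and Tubb5 (0.00543 in DESeq2, 0.00138 with median-ratio factors, 0.00704 without a filter). Genes with a longer tail, 10 in all, numbered 3 with at least 200 tags, 1 on the log2 scale, 3 with array weights and 3 with each library centred on its median. Centring also put the tail differences of Tuba1a at -1.91, Tubb3 at -1.05, Tubb4a at -3.85 and Tubb5 at -0.63 nt, and array weights put Tubb4a at -1.26 nt. With the replicate number as a block, 1 gene passed in tails and 113 in tags, and 0 tubulin genes in either. Leaving out 1 mouse at a time gave 100 to 150 genes in tags and 1 to 21 in tails, 19 without dark mouse 1, 2 without dark mouse 2 or light mouse 3, 1 without dark mouse 3, dark mouse 4 or light mouse 2, and 21 without light mouse 4. The log2 tag differences then ranged from -0.080 to 0.069 for Tubb2a, -0.087 to 0.026 for Tubb3, -0.050 to 0.079 for Tubb4a and -0.044 to 0.066 for Tubb5. Tail differences ranged from -0.070 to 5.37 nt for Tubb3 and from -1.51 to 1.40 nt for Tubb4a.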

Other observations

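The genes whose RNA-seq levels followed a tubulin gene most closely were found by Pearson's r of log2(CPM + 1) over the 12 cultures and tissues, among 11893 genes. These libraries share controls, differ in depth and fall into cultures and tissues, so r is a description only. Tuba4a was followed by Pex5l (r = 0.992), Rasgef1a (0.992) and Dlg3 (0.989), a synaptic scaffold protein. Tubb4a was followed by Bsn (0.977) and Pclo (0.966), the large scaffold proteins of the presynaptic active zone, and by Cmip (0.963). Tubb5 was followed by Jpt1 (0.982), Marcksl1 (0.975) and Mycn (0.975), a transcription factor of proliferating progenitors.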
